A study of Mus musculus with 48 samples.

Results

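The opioid receptor family of the mouse has 4 genes: Oprm1, which encodes the mu receptor, Oprd1, which encodes the delta receptor, Oprk1, which encodes the kappa receptor, and Oprl1, which encodes the nociceptin receptor. Their rows were taken by symbol from a striatal table of 23420 genes, and their exon bins were taken by Ensembl identifier from a table of 368092 bins, of which 100 belonged to the family. Bins cut each exon wherever the set of annotated transcripts that cover it changes. Oprm1 had 59 bins, Oprd1 had 3, Oprk1 had 11 and Oprl1 had 27.

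Striatal RNA came from 8 mice of a congenic line that the labels call 112kb congenic and from 8 wild-type littermates of the C57BL/6J strain, with 4 males and 4 females in each genotype. The mice were about 50 days old, and 3 mm punches from the left and right striatum were pooled per mouse. The labels say no more of the line than this name. As background from outside the labels, the congenic mice carry DBA/2J sequence around Hnrnph1, the gene for the RNA-binding protein hnRNP H, on a C57BL/6J genome. The submitters' title speaks of splicing differences, and the comparison here asks whether receptor levels and the use of receptor exons differed between the genotypes.

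All 4 receptors couple to inhibitory G proteins of the Gi/o class, lower adenylyl cyclase activity, open GIRK potassium channels and close presynaptic calcium channels. In the striatum the mu receptor is known as a mark of the striosome (patch) compartment, the delta receptor is found on projection neurons and cholinergic interneurons, and the kappa receptor sits on dopamine terminals and on some projection neurons. Enkephalins act mainly on mu and delta receptors, dynorphins on kappa receptors and nociceptin on the nociceptin receptor. Oprm1 is spliced into many transcripts, most of which differ from the main form, MOR-1, at the 3′ end, and a further set starts at an upstream exon. HnRNP H binds runs of G in RNA, and in human OPRM1 it was reported to act on the inclusion of exon 2.

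Because of that reported role, the 5′ splice site of the second coding exon of each receptor is shown, with the last 30 bases of the exon and the first 60 bases of the intron. Sequences run 5′ to 3′ on the strand of the gene, and capitals mark runs of at least 3 G. They were read from the NCBIM37 genome at chr10:3517244-3517333 on the minus strand for Oprm1, chr4:131672974-131673063 on the minus strand for Oprd1, chr1:5588994-5589083 on the plus strand for Oprk1 and chr2:181453408-181453497 on the plus strand for Oprl1.
Oprm1: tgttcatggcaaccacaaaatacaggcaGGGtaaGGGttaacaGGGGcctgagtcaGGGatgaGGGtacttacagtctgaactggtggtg
Oprd1: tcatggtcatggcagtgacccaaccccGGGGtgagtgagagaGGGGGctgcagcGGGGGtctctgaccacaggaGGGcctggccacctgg
Oprk1: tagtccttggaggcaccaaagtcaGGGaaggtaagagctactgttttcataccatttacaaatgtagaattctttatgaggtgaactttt
Oprl1: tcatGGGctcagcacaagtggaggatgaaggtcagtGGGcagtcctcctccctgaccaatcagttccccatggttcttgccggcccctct
The Oprm1 window held 5 runs of G, of which 4 lay wholly in the intron and the other spanned the splice site. The Oprd1 window held 4 runs, the Oprl1 window 2 and the Oprk1 window 1. Among 159126 internal coding exons of the genome, 67.7% had at least 1 run of GGG in the same window on the strand of the gene, and 5.87% had 4 or more runs in the intron part. A run of G is a description of the sequence and not evidence of binding.

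The 3 lanes of each mouse were summed, which gave 73125051 to 81994255 counts per mouse in the gene table and 118458225 to 133151148 in the exon table. Markers of the striatum were high in every mouse: Ppp1r1b, which encodes DARPP-32, had 1636 to 2298 CPM (the usual unit of counts scaled to a common library total, here after TMM scaling), Drd1a had 254.3 to 336.5 CPM and Drd2 had 177.0 to 247.2 CPM. Wild-type mouse Sample_4806 is labelled female but had 2.73 CPM of Xist, which is transcribed from the inactive X, where the other 7 females had 958.3 to 1535 CPM and the 8 males had 1.32 to 17.3 CPM. Its label was kept. Where a sex difference of a receptor, its shares or bins, or a signalling gene is given, it is also given without this mouse. Genotype fold changes within a sex, the Oprl1 interaction and the marker lists by sex are given only with it. Across all genes, 0 of 16716 passed for genotype in the edgeR quasi-likelihood test at an adjusted p under 0.05 (0% called), 256 (1.53%) had an unadjusted p under 0.05, and DESeq2 and limma-voom also called 0 genes, with 268 and 277 at an unadjusted p under 0.05.

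Per kilobase of summed exon bin length, Oprd1 had the highest level of the family and Oprm1 the lowest. Over the 16 mice the levels were 9.99 ± 0.815 CPM per kb for Oprd1, 7.20 ± 0.585 for Oprl1, 4.45 ± 0.725 for Oprk1 and 0.293 ± 0.0613 for Oprm1 (SD, n = 16). This order was the same in 16 of 16 mice, although the ranges of Oprd1 (8.19 to 11.3 CPM per kb) and Oprl1 (6.00 to 8.30 CPM per kb) met across mice. The place of Oprm1 at the bottom held on every length scale tried, but the order at the top did not. When only the bins of the second coding exon were counted, which has about the same length in each gene, Oprl1 stood above Oprd1 in 16 of 16 mice, at 7.41 ± 0.864 against 5.74 ± 0.577 exon bin CPM per kb, and Oprk1 had 4.83 ± 0.890. Oprm1 then had 1.65 ± 0.494 exon bin CPM per kb. Of its 59 bins, which cover 8156 bp, 34 held 1 to 30 counts over all mice.

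Oprm1 (ENSMUSG00000000766, chr10:3308332-3588035, minus strand) had lower counts in the congenic mice, by a difference that did not pass the adjusted threshold. Its level ran from 1.87 to 2.54 CPM with a median of 2.18 in the congenic mice, and from 1.94 to 3.87 CPM with a median of 2.47 in the wild-type mice. The groups overlapped, although 4 of the 8 wild-type mice lay above the highest congenic mouse. The congenic mean was 2.17 ± 0.194 CPM and the wild-type mean 2.60 ± 0.627 CPM (SD, n = 8 each). They rest on 149 to 197 counts per congenic mouse and 144 to 284 counts per wild-type mouse. The log2 fold change of congenic over wild-type mice was -0.26 (SE 0.12, 95% interval -0.52 to -0.004), with an edgeR p of 0.0467 unadjusted and 0.999 adjusted. It was -0.15 (edgeR p = 0.160 unadjusted) without wild-type female Sample_4738, which had the highest level, and -0.30 without mouse Sample_4806. By lane it was -0.26 in lane 3, -0.39 in lane 4 and -0.13 in lane 5 (edgeR adjusted p of at least 0.999 in each). Markers of cortical excitatory neurons were also lower in congenic mice, with 9 of 10 fold changes below 0, a median of -0.38 and summed levels of 181.2 to 457.8 CPM in congenic and 238.6 to 445.7 CPM in wild-type mice. All 4 claustrum markers in the table had fold changes below 0, with a median of -0.22, and 0 genes of either list were called. Of all genes, 48.9% had fold changes below 0. Some other lists were also one-sided, with smaller medians and 0 genes called. Oligodendrocyte markers had 6 of 6 above 0 (median 0.05). Cholinergic interneuron markers had 1 of 6 above 0 (median -0.04), and ependyma markers 1 of 6 (median -0.06). With the cortical score as a covariate the Oprm1 fold change was -0.32 (edgeR p = 0.0227 unadjusted). The fold change was -0.32 in females and -0.20 in males, and the test of the interaction did not separate them (difference 0.13, SE 0.25, edgeR adjusted p = 0.973, and 0.25 without mouse Sample_4806). Over all genes the interaction called 0 (0%), and 4.18% had an unadjusted p under 0.05.

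**Figure D1:**
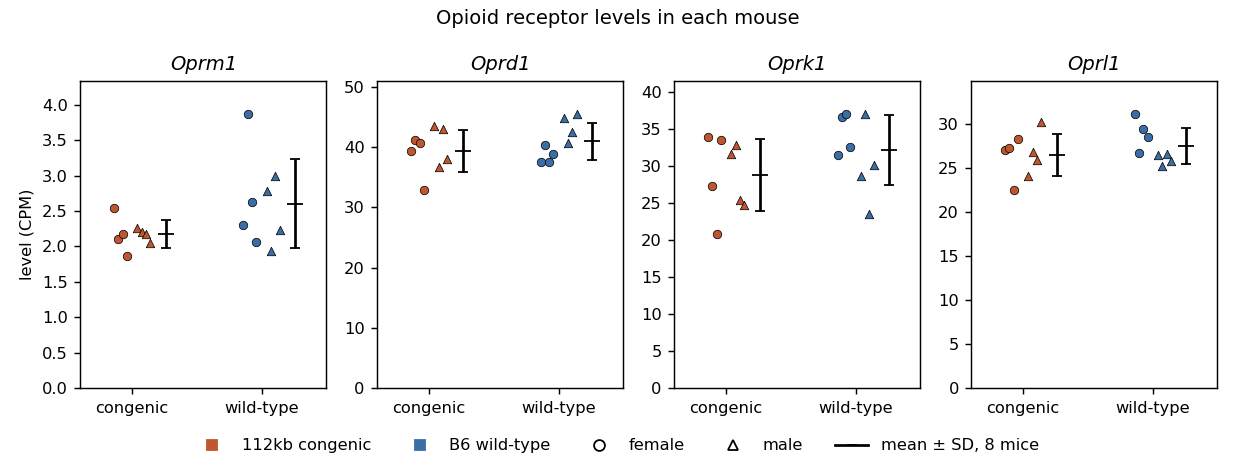
Level of each opioid receptor gene in CPM in each mouse, with 112kb congenic mice to the left of B6 wild-type mice, circles for females, triangles for males, and bars for the mean and SD of 8 mice. Each panel has its own axis from 0. The Oprm1 points of the wild-type mice reach 3.87 CPM, those of the congenic mice 2.54 CPM, and the points of the genotypes overlap in every panel.

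The other receptors also had small negative fold changes that the data did not separate from 0. Oprd1 (ENSMUSG00000050511, chr4:131666641-131700401, minus strand) ran from 32.9 to 43.4 CPM with a median of 39.97 in congenic mice and from 37.5 to 45.5 CPM with a median of 40.5 in wild-type mice. Its log2 fold change was -0.06 (SE 0.05, 95% interval -0.16 to 0.05, edgeR adjusted p = 0.999). The genotypes overlapped over most of their ranges.
Oprk1 (ENSMUSG00000025905, chr1:5578574-5596212, plus strand) ran from 20.8 to 33.9 CPM with a median of 29.5 in congenic mice and from 23.6 to 37.0 CPM with a median of 32.0 in wild-type mice, a log2 fold change of -0.16 (SE 0.11, 95% interval -0.39 to 0.07, edgeR adjusted p = 0.999). Over 10 settings, among them the cortical score as a covariate, the Oprk1 fold change ran from -0.175 to -0.0844. Oprk1 varied more between mice of a genotype than Oprd1 or Oprl1 did.
Oprl1 (ENSMUSG00000027584, chr2:181449721-181455690, plus strand) ran from 22.5 to 30.2 CPM with a median of 26.9 in congenic mice and from 25.2 to 31.1 CPM with a median of 26.6 in wild-type mice, a log2 fold change of -0.05 (SE 0.06, 95% interval -0.17 to 0.06, edgeR adjusted p = 0.999). Its fold change was -0.14 in females and 0.04 in males, and the interaction of 0.18 (SE 0.11) had an edgeR p of 0.0985 unadjusted and 0.967 adjusted.

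No receptor differed between the sexes at the adjusted threshold, which 23 of 16716 genes passed (0.138%) and 14.7% passed without adjustment. Sex nearly followed mouse number. Males ran from Sample_4671 to Sample_4734, and females, apart from Sample_4676 and Sample_4677, from Sample_4737 to Sample_4806. Differences that go with mouse number can therefore hardly be told apart from sex differences here. Oprd1 was the only receptor with an unadjusted p under 0.05. It ran from 36.6 to 45.5 CPM with a median of 42.7 in males and from 32.9 to 41.2 CPM with a median of 39.1 in females. The log2 fold change of males over females was 0.12 (SE 0.05, 95% interval 0.01 to 0.22), with an edgeR p of 0.0302 unadjusted and 0.297 adjusted, and it was 0.11 without mouse Sample_4806 (edgeR p = 0.0469 unadjusted, 0.451 adjusted). The summed level of 10 markers of medium spiny neurons, the projection neurons of the striatum, ran in the same direction. It was 12084 to 13669 CPM in males and 10441 to 12863 CPM in females, a range that holds mouse Sample_4806 at 11172 CPM. The part of this level in the Oprd1 difference was not tested. In bulk tissue, fewer cells of a type and less RNA per cell cannot be told apart. Oprm1, Oprk1 and Oprl1 had log2 fold changes of -0.07, -0.11 and -0.07, all with SEs of 0.06 to 0.12. Without mouse Sample_4806 they were -0.12, -0.12 and -0.06.

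Most Oprm1 counts fell in the 4 exons of the MOR-1 transcript. These held 91.5% of the 8370 counts in Oprm1 bins over all mice. This is not the share of MOR-1 among the variants, because most annotated transcripts share some of these exons. Exon 3 lies in 31 of the 35 transcripts and the bins of exon 2 in 29 to 31, while the coding bin of exon 4 lies in 9. Exon 1 held 2992 counts, exon 2 held 1175, exon 3 held 1138 and exon 4 held 2357. The bins that extend exon 4 and exon 1 without a gap held 305 and 179 counts. The exons of the upstream start, which begin transcripts known for shortened receptor forms, held 5 counts, all in bin 58 of the gene. The 13 bins between exons 3 and 4 held 125 counts over 2955 bp, and the 17 bins beyond exon 4, where many of the annotated 3′ variants end, held 84 counts over 2083 bp. Of the 59 bins, 6 had no count in any mouse, and a count of 0 allows a share of up to 0.0358% of the Oprm1 counts, counting error alone considered. That limit takes each bin count as a separate read, and it would be higher as a share of reads counted in several bins. Bin counts are not molecules: bin 12 of Oprl1 is 1 base long and held 1240 counts, so a read appears to be counted in each bin it overlaps. The gene table held 2962 counts for Oprm1, 0.354 times the sum of its bins, where the ratio was 0.968 for Oprd1, 0.785 for Oprk1 and 0.721 for Oprl1.

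**Figure D2:**
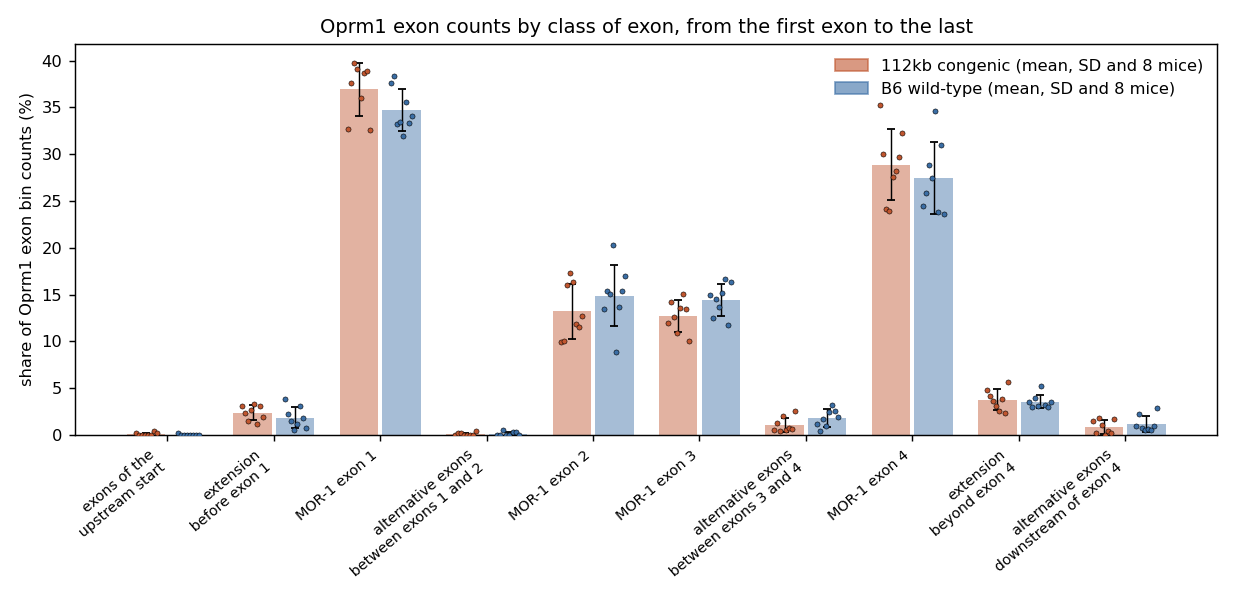
Share of the Oprm1 exon bin counts, in percent, that falls in each class of exon, from the upstream start to the last annotated exon, with bars for the mean and SD of 8 mice, points for single mice, and congenic mice left of wild-type mice. MOR-1 exon 1 holds 36.9% in congenic and 34.7% in wild-type mice, and the class of alternative exons between exons 3 and 4 stays at or below 3.20% in every mouse.

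The share of exon 2 among the counts of MOR-1 exons 1 to 3 was lower in congenic mice by an amount within the spread between mice. It ran from 16.2% to 25.7% with a median of 20.6% in congenic mice and from 15.8% to 30.1% with a median of 23.5% in wild-type mice. The congenic range lay wholly inside the wild-type range. The congenic mean was 20.9% ± 3.67 and the wild-type mean 23.1% ± 4.24 (SD, n = 8 each), a difference of -2.15 percentage points (two-sided exact permutation test, p = 0.289 over 12870 splits). Each mouse was run on 3 lanes, and the lanes gave different values, with p unadjusted over the 3. In lane 4 alone the share was 14.8% ± 4.602 in congenic and 26.1% ± 6.18 in wild-type mice, a difference of -11.3 points (exact permutation p = 0.00186), while lane 3 gave 24.7% ± 7.46 in congenic and 21.4% ± 6.45 in wild-type mice (p = 0.374, exact permutation test) and lane 5 gave 21.5% ± 4.74 in congenic and 21.99% ± 7.24 in wild-type mice (p = 0.882, exact permutation test). Exon 2 held 111 congenic and 266 wild-type counts in lane 4, against 191 congenic and 189 wild-type counts in lane 3 and 209 counts in each genotype in lane 5.

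The share of Oprm1 counts outside the MOR-1 exons was also close in the genotypes. It ran from 6.15% to 12.4% with a median of 7.77% in congenic mice and from 5.11% to 10.3% with a median of 8.78% in wild-type mice, with a congenic mean of 8.24% ± 2.15 and a wild-type mean of 8.52% ± 1.57 (SD, n = 8 each). The difference was -0.28 percentage points (two-sided exact permutation test, p = 0.775). Most of these counts lay in the bins that extend exon 4 and exon 1 (305 and 179 counts), so this share says little of the alternative exons. Without the extending bins, a setting added after seeing the data, the mean share was lower in congenic mice. It then ran from 0.512% to 4.83% in congenic and from 1.48% to 4.73% in wild-type mice, so the genotypes overlapped. Males minus females gave -0.27 points in the exon 2 share (exact permutation p = 0.899) and -0.26 points in the share outside MOR-1 (exact permutation p = 0.786), and 0.18 points (exact permutation p = 0.937) and -0.20 points (exact permutation p = 0.850) without mouse Sample_4806.

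Bin use was compared with that of the other bins of the gene for the receptor bins with enough counts: 18 of Oprm1, 3 of Oprd1, 11 of Oprk1 and 19 of Oprl1. None was called by genotype or by sex with edgeR's diffSpliceDGE at an adjusted p under 0.05, against 0.000425% and 0.0157% of 235478 bins called over all genes for genotype and sex, and none had an unadjusted p under 0.05 by genotype (1.03% of all bins did). The Oprm1 bins ran from -0.25 to 0.39 log2 in their congenic over wild-type use. The 3 bins of exon 2 were at -0.18, -0.15 and -0.25 and exon 3 (bin 37) at -0.20. Taken per gene by Simes' method, 0.00672% of 14875 genes were called by genotype and 0.128% by sex, with 0 receptors among them. Exon 3 had the smallest p of Oprm1 (p = 0.144 in edgeR, adjusted p = 1), with 12.7% ± 1.69 of the gene in congenic mice and 14.4% ± 1.72 in wild-type mice. The extension beyond exon 4 (bin 18) was the only bin outside MOR-1 with enough counts for the test and gave 0.11 (edgeR p = 0.649), at 3.75% ± 1.11 of the gene in congenic mice and 3.56% ± 0.723 in wild-type mice. By sex, the smallest Oprm1 p came from bin 48 within exon 1, at -0.39 for males over females (edgeR p = 0.0973), and at -0.32 without mouse Sample_4806.

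**Figure D3:**
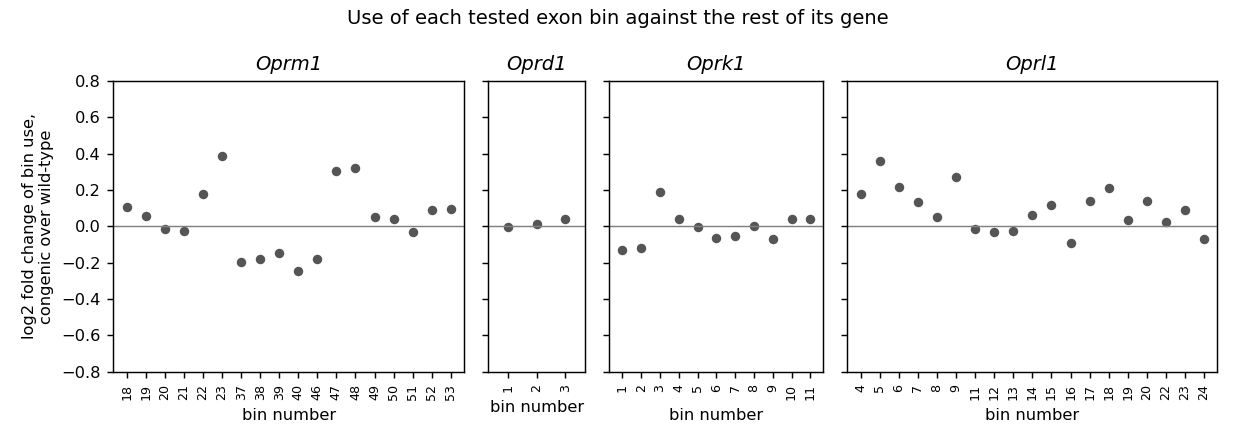
Log2 fold change of the use of each tested exon bin relative to the other bins of the gene, congenic over wild-type mice, with bins in order of their number along the genome and 1 panel per receptor. The Oprm1 bins run from -0.25 to 0.39, those of Oprd1 lie within 0.05 of 0, and 0 bins passed the adjusted threshold.

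In Oprd1, Oprk1 and Oprl1 the last exon held the largest share of the counts. Oprd1 has 3 exons and a single annotated transcript, and its last exon held 85.0% ± 0.936 of them in congenic mice and 85.3% ± 0.763 in wild-type mice. Its bin of smallest p by genotype was exon 1, at 0.04 on the log2 scale (edgeR p = 0.633), and by sex exon 2, at -0.11 (edgeR p = 0.190) and -0.12 without mouse Sample_4806.
In Oprk1 the last bin, part of the 3′ UTR, held 34.4% ± 1.93 in congenic and 33.4% ± 1.498 in wild-type mice. Bin 6, annotated in 1 transcript that keeps part of the intron before exon 3, held 7.48% ± 0.860 in congenic and 7.78% ± 1.11 in wild-type mice, at 2072 bp in length. The Oprk1 bin of smallest p by genotype was bin 2, in the first exon, at -0.12 (edgeR p = 0.471), and by sex bin 4, at -0.43 for males over females (edgeR p = 0.128) and -0.37 without mouse Sample_4806.
In Oprl1 bin 24, in the 3′ UTR, held 38.9% ± 2.04 in congenic and 40.7% ± 0.830 in wild-type mice, and bin 12, a single base within exon 2, held 2.63% ± 0.308 in congenic mice and 2.68% ± 0.331 in wild-type mice. The Oprl1 bin of smallest p by genotype was bin 5, at 0.36 (edgeR p = 0.114). By sex it was bin 9, at 0.75 for males over females (edgeR p = 0.0150 unadjusted, 1 adjusted), with 145 counts over all mice, and at 0.76 without mouse Sample_4806. This was the single receptor bin with an unadjusted p under 0.05 by sex, a threshold passed by 3.25% of all bins.

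The opioid peptide precursors and signalling genes gave no call by genotype. Of 31 genes listed, 0 passed the adjusted threshold and 0 had an unadjusted p under 0.05 by edgeR, with 11 fold changes above 0 and 20 below (51.1% and 48.9% of all genes), and their median log2 fold change was -0.02 beside 0.001 for all genes. Penk, the precursor of enkephalins, had 1401 to 1828 CPM with a median of 1576 in congenic mice and 1296 to 1848 CPM with a median of 1646 in wild-type mice (log2 fold change 0.01, SE 0.07). Pdyn, the precursor of dynorphins, had 26.7 to 44.1 CPM with a median of 34.5 in congenic mice and 24.0 to 42.9 CPM with a median of 38.6 in wild-type mice (-0.08, SE 0.11). Both ranges overlapped nearly in full. Without mouse Sample_4806 the fold change was -0.14 for Pdyn and turned to -0.02 for Penk, with SEs of 0.09 and 0.07. Pomc, the precursor of beta-endorphin, had a fold change of -0.04 (SE 0.14), and Pnoc, the precursor of nociceptin, one of 0.01 (SE 0.43). Both were near 2 CPM on average, and the interval of Pnoc, from -0.91 to 0.93, is the widest of the 4 precursors.

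By sex, 8 of the 31 genes had an unadjusted p under 0.05, against 14.7% of all genes, and 0 passed the adjusted threshold, which 0.138% of all genes passed. Of their fold changes 19 were above 0, where 48% of all genes were above and 52% below. Pdyn was at 0.23 for males over females, Gnai2 (an inhibitory G protein alpha subunit) at 0.08, Adcy5 (the main striatal adenylyl cyclase) at 0.10, Arrb1 (an arrestin) at 0.07 and Rgs20 (an RGS protein, a class that shortens G protein signals) at 0.13. Kcnj6 and Kcnj9, subunits of the GIRK channels, were at -0.55 and -0.16, and Rgs4 at -0.15. The edgeR adjusted p ranged from 0.224 for Rgs4 and Rgs20 to 0.334 for Kcnj6. Without mouse Sample_4806, 4 of the 31 had an unadjusted p under 0.05 in edgeR, namely Gnai2 at 0.09, Kcnj9 at -0.15, Rgs4 at -0.14 and Rgs20 at 0.09. The share of all genes under that p was not taken in this fit, so this count has no background. At the adjusted threshold, 0 of the 31 and 15 of 16803 genes passed in it. Pdyn was then at 0.17, Adcy5 at 0.08, Arrb1 at 0.05 and Kcnj6 at -0.52. Kcnj6 had 2.07 to 5.23 CPM in males and 2.26 to 7.14 CPM in females. Marker lists moved with sex beside these genes. All 10 pan-MSN markers, all 6 D1-MSN markers and all 6 D2-MSN markers had fold changes above 0, with medians of 0.11, 0.14 and 0.11, while 9 of 10 cortical excitatory markers were below 0, with a median of -0.62. Other lists were one-sided too. Cholinergic interneuron markers had 6 of 6 above 0 (median 0.18) and microglia markers 4 of 5 (median 0.16). Ependyma markers had 0 of 6 above 0 (median -0.25) and thalamus markers 0 of 5 (median -0.10). In all these lists 0 genes were called. The summed cortical level was 181.2 to 445.7 CPM in males and 202.6 to 457.8 CPM in females. The part of these lists in the sex differences was not tested.

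**Figure D4:**
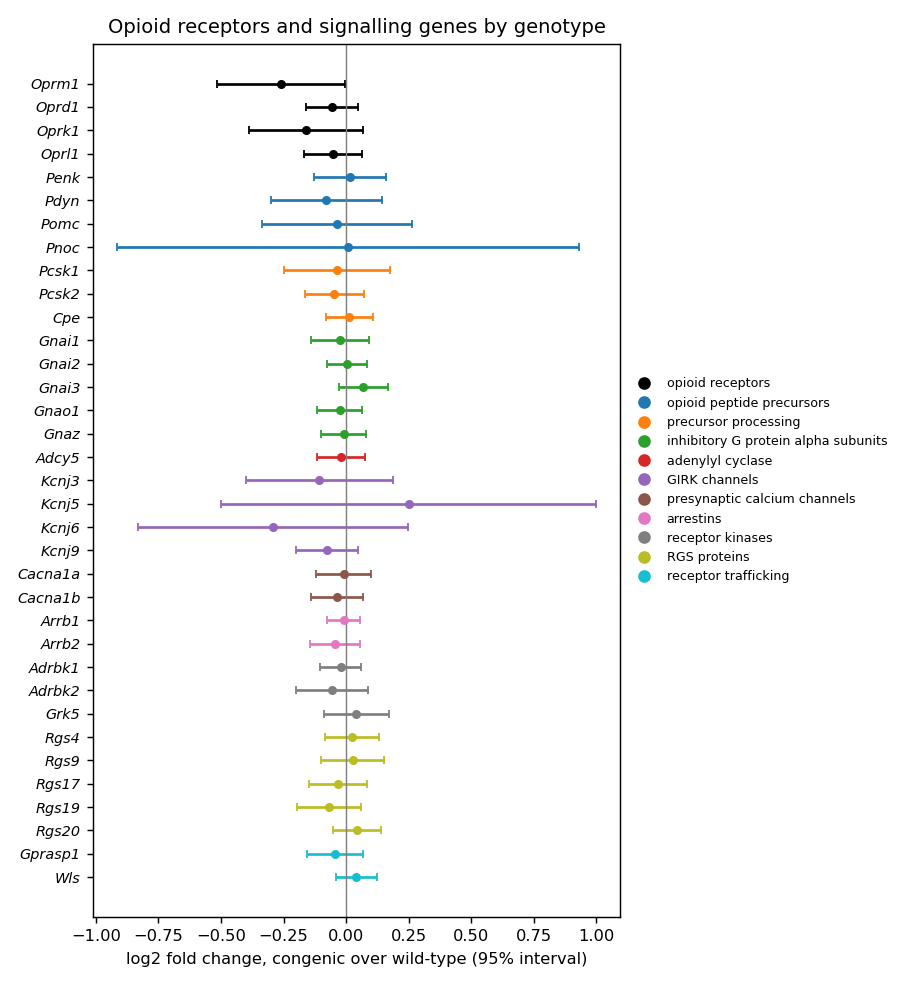
Log2 fold change of congenic over wild-type mice with its 95% interval for the 4 receptors and 31 genes of opioid signalling, coloured by role. The intervals of all 31 signalling genes hold 0, and that of Oprm1 ends at -0.004.

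Across the 16 mice, the level of each of Oprd1, Oprk1 and Oprl1 moved with the markers of a cell type or region, and that of Oprm1 did not move detectably with any list. A marker score was the mean of the centred log2 CPM of the genes of a list, and 64 relations of 4 receptors with 16 lists were computed, with Benjamini-Hochberg adjusted permutation p values. Oprd1 was higher in mice with a higher score of medium spiny neurons (pan-MSN: r = 0.78, rho = 0.85, permutation p = 0.00033 and adjusted p = 0.00752 for r, 0.00006 and 0.00384 for rho), and r was 0.67 without the 2 mice farthest from the median score. Within genotypes r was 0.95 in congenic and 0.64 in wild-type mice, and within sexes 0.51 in males and 0.87 in females. Oprd1 was also higher where markers of GABA interneurons were higher (r = 0.71, rho = 0.76, permutation p = 0.00222 and adjusted p = 0.0284 for r, 0.00088 and 0.0181 for rho), with 0.75 without the 2 farthest mice, 0.74 in congenic and 0.70 in wild-type mice. This relation was uneven by sex, with r of 0.90 in males and 0.32 in females.
Oprk1 was higher where the score of the matrix list (Id4, Epha4, Gda, Sv2b and Calb1) was higher (r = 0.80, rho = 0.73, permutation p = 0.00023 and adjusted p = 0.00752 for r, 0.00184 and 0.0236 for rho), with 0.67 without the 2 farthest mice, 0.88 in congenic and 0.71 in wild-type mice, and 0.75 in males and 0.83 in females. The members did not all run alike between Sample_4739, with the lowest Oprk1 level, and Sample_4753, with the highest. Calb1 had 312.5 CPM in Sample_4739 and 288.8 CPM in Sample_4753. In the same order Gda had 130.5 and 187.5 CPM, Id4 127.1 and 142.3 CPM, and Epha4 239.8 and 240.4 CPM. Single members were not tested against Oprk1. For the cortical excitatory and claustrum lists r was 0.59 and 0.59 (permutation p = 0.0176 and 0.0164, adjusted p = 0.0866 for each).
Oprl1 was higher where the markers of septum and pallidum were higher (r = 0.77, rho = 0.70, permutation p = 0.00047 and adjusted p = 0.00752 for r, 0.00366 and 0.0390 for rho), with 0.68 without the 2 farthest mice, 0.81 in congenic and 0.72 in wild-type mice, and 0.97 in males and 0.68 in females. It was also higher where ependyma markers were higher (r = 0.77, rho = 0.79, permutation p = 0.00047 and adjusted p = 0.00752 for r, 0.00036 and 0.0115 for rho), with 0.75 without the 2 farthest mice, 0.78 in congenic and 0.74 in wild-type mice, and 0.75 in males and 0.76 in females.
Another 4 relations passed by rho and not by r, 3 of them negative. Oprl1 was lower where the pan-MSN score was higher (rho = -0.75, permutation p = 0.00113, adjusted p = 0.0181, r = -0.57 with adjusted p = 0.0872). Oprd1 was lower where ependyma markers were higher (rho = -0.67, permutation p = 0.00587, adjusted p = 0.0430, r = -0.66 with adjusted p = 0.0514), and Oprk1 where choroid plexus markers were higher (rho = -0.67, permutation p = 0.00604, adjusted p = 0.0430, r = -0.62 with adjusted p = 0.0716). Oprd1 was higher where markers of cholinergic interneurons were higher (rho = 0.69, permutation p = 0.00429, adjusted p = 0.0392, r = 0.63 with adjusted p = 0.0624).
Oprm1 had r of 0.28 with the striosome list (permutation p = 0.293), and its smallest adjusted p for r over the 16 lists was 0.536. The striosome relation was uneven, with r of 0.53 without the 2 farthest mice. Within genotypes it was -0.44 in congenic and 0.57 in wild-type mice, and within sexes -0.10 in males and 0.36 in females. The summed levels of septum and pallidum markers ran from 55.3 to 120.2 CPM in congenic and 57.6 to 105.4 CPM in wild-type mice, and those of ependyma from 18.6 to 48.4 CPM in congenic and 21.4 to 39.95 CPM in wild-type mice. These are levels relative to the library total, so lists of different cell types share it.

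**Figure D5:**
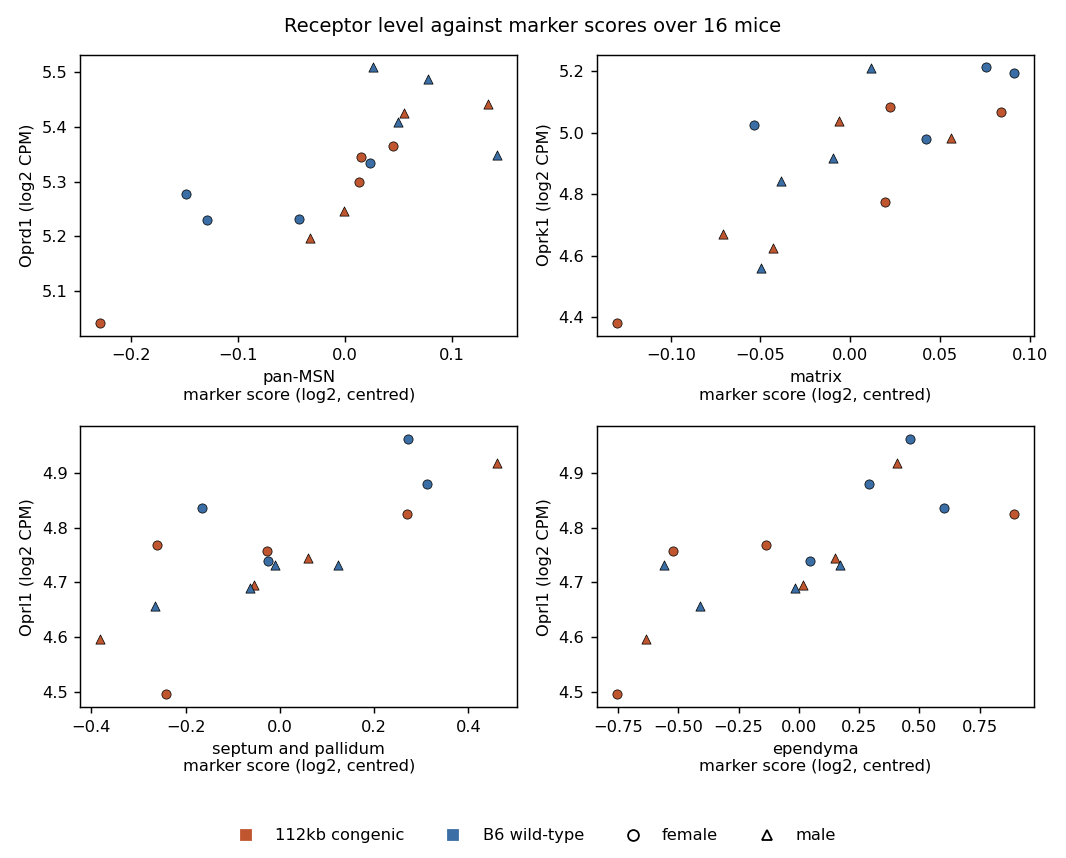
Log2 CPM of a receptor against a marker score (the mean centred log2 CPM of the list) over 16 mice, for Oprd1 with medium spiny neuron markers, Oprk1 with matrix markers, and Oprl1 with septum and pallidum and with ependyma markers. Colour marks genotype and shape marks sex, and all 4 panels rise from left to right.

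By Pearson correlation of log2 CPM over the 16 mice, among 16715 other genes, the pattern of Oprm1 was closest to those of Mtmr9 (r = 0.78), Xpo7 (0.77), Pcdh17 (0.76), Cdh8 (0.76) and Gatad2b (0.75). That of Oprd1 was closest to Slc15a4 (0.90), Inppl1 (0.88), Cit (0.86), Slx4 (0.85) and Rcsd1 (0.85). That of Oprk1 was closest to Dusp18 (0.87), Gp5 (0.86), Mms22l (0.85), Eef2k (0.84) and Ikzf4 (0.84), and that of Oprl1 to Dleu7 (0.89), Tcerg1l (0.89), Msln (0.88), Ubxn10 (0.87) and Crygn (0.86). These coefficients were the largest of many, and they are given as a description with no test. Without the 2 mice farthest from the median of Oprm1, its r was 0.84 with Mtmr9, 0.54 with Xpo7 and 0.43 with Pcdh17. It was 0.68 with Cdh8 and 0.63 with Gatad2b. For the genes named with the other receptors, r without the 2 farthest mice ran from 0.73 to 0.93. The correlation between receptors ran from -0.54 for Oprd1 with Oprl1 to 0.32 for Oprk1 with Oprl1.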

How the data were processed

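The authors deposited a table of counts per gene and a table of counts per exon bin, both as raw whole numbers, per the file headers and values. Per the submitters' processing notes, the tools were HTSeq 0.6.1p1, FastQC 0.10.1, limma 3.22.7 and edgeR 3.8.6, with mm9 and mm10 both listed. No aligner is given in the sources used here. Read length and layout conflict, with 50 bp single-end reads in the design text and 100 bp paired-end stranded reads in the protocol. Bins rebuilt from GENCODE vM1 on NCBIM37 (mm9) had the same number as deposited for 16249 of 16655 genes with at least 5 bins (97.6%), and for all 4 receptors, so coordinates are given on that build. Of the entries per gene with 1 to 10 counts, 62.0% were even. Strand use in counting is not stated, so overlapping antisense reads may be included.

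The 3 lanes of a mouse were summed and n counts mice. Genes and bins were kept by filterByExpr (minimum count 10, minimum total 15) and scaled by TMM. The edgeR 4.0.16 quasi-likelihood test (R 4.3.3) had genotype and sex in the model, bin use was tested with diffSpliceDGE, whose coefficients were converted from natural logs to log2, and Benjamini-Hochberg adjusted p under 0.05 was a call. Log2 CPM used a prior count of 2. DESeq2 1.42.0 and limma 3.58.1 served as alternatives, and Python 3.11.15 ran the permutation tests. The scripts were tested on simulated data. Named genes were the receptors, the 4 precursors, list genes with an unadjusted p under 0.05, bins of largest share or smallest p, and the 5 genes of highest correlation. The members and lists were chosen with earlier results of these data known. Counts per bin and per gene set the precision, and intervals cover the spread between mice.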

Additional observations from a re-analysis of the deposited data

Results flagged for a closer look

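In wild-type mouse Sample_4732, 5.11% of Oprm1 counts lay outside the MOR-1 exons, where the other 7 wild-type mice had 7.88% to 10.3%. The gap to the nearest mouse was 0.539 of the range of the group, above Dixon's 95% critical value for 8 samples. Of 20 groups of mice examined in this way, chance would flag about 1 in 20.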

How the results depend on the processing

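Levels and exon shares rest on few Oprm1 counts, and differences smaller than their intervals were not detectable at this depth. The genotype difference of Oprm1 ran from -0.39 to -0.13 over 10 settings and from -0.31 to -0.15 when each mouse was left out. The sex difference of Oprm1 was -0.07 and changed sign to 0.16 with lane 4 alone, and it ran from -0.12 to 0.0409 when each mouse was left out. Its interaction ran from -0.0804 to 0.25, the sign changing without wild-type mouse Sample_4738. The exon 2 share difference was 3.26 points with lane 3 alone and -11.3 with lane 4 alone (exact permutation p = 0.00186), and it ran from -3.20 to -1.16 when each mouse was left out. The difference in the share outside MOR-1 was 4.51 points when counts were taken per base of bin, 0.433, 1.58 and -2.35 with lanes 3, 4 and 5 alone, -0.997 without the bins that extend exons 1 and 4 (added after seeing the data), 0.265 in males, -0.817 in females, and -0.863 to 0.0235 when each mouse was left out. The use of bin 37 of Oprm1 was 0.0118 with lane 4 alone, that of bin 3 of Oprd1 -0.0474 with lane 3 alone and that of bin 2 of Oprk1 0.0107 with lane 5 alone. The level of Oprm1 per kb was 0.869 by the longest transcript, 0.507 by exon counts and 1.65 by the second coding exon (added after seeing the data), that of Oprd1 6.32 by exon counts and 5.74 by the second coding exon, that of Oprk1 6.51 by the longest transcript and 3.48 by exon counts, and that of Oprl1 8.71 by the longest transcript and 6.13 by exon counts. Leaving out each mouse kept direction and call for 397 values and turned 3, and other settings kept 165, turned 9, moved 9 and brought 1 past its threshold. Genes called by genotype stayed at 0 under every setting run. The cause of these changes was not tested. The sample labels used here give no litter or pair, so litter was not in the model and no paired analysis was run.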
